A study of Mus musculus with 6 samples.

Results

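Macrophages settle in the embryonic heart before birth, and the genes described here encode the molecules by which such cells take up debris and tag it for removal. C1qa, C1qb and C1qc encode the A, B and C chains of C1q, which binds immune complexes and dying cells and starts the classical complement pathway. Msr1, Cd163, Mrc1 and Stab1 encode scavenger receptors for modified lipoproteins, haemoglobin bound to haptoglobin, mannose-bearing glycoproteins and altered matrix or growth factors. Lyve1 encodes a hyaluronan receptor, Vsig4 a receptor for complement C3 fragments, and Timd4 a receptor for the phosphatidylserine of apoptotic cells. Stab1, Lyve1 and Mrc1 are also made by lymphatic or sinusoidal endothelium, so in whole tissue their RNA does not come from macrophages alone.

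The set holds 10 of the 46983 genes listed in the deposited tables, matched by symbol. The genes were selected on their measured values in these same hearts (among them the higher levels of Msr1, Timd4 and Vsig4 in mutants), so every difference between groups given here for a member is a description and carries no test. Of the 10 members, 9 passed a filter on low counts. Vsig4 passed it through the mutant hearts only, and Cd163 did not pass.

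Whole E13.5 hearts of the strain C57BL/6 x DBA/2 were sequenced, 1 heart per library and 3 per group. Mutant hearts (replicates 1, 5 and 10, named mutants 1, 5 and 10) carried a Tnnt2 Cre transgene and floxed Wt1. The controls (2, 3 and 5, named likewise) are labelled wild type, and the study's methods describe them as floxed at both Wt1 alleles and lacking Cre, so the presence of Cre cannot be told apart from the loss of Wt1. Tnnt2 Cre recombines in the cardiomyocyte lineage and, according to the study, in some epicardial cells, and recombination in macrophages was not tested here. Total counts ran from 44244665 in control 5 to 56373393 in control 3. The targeted gene Wt1 had 2251, 1891 and 879 counts in controls 2, 3 and 5 against 921, 1746 and 1796 in mutants 1, 5 and 10. These counts cover the whole gene and do not separate recombined from intact alleles.

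Control 3 stood apart in liver RNA. Alb, the gene for serum albumin, had 0, 17429 and 289 counts in controls 2, 3 and 5 against 46, 2 and 9 in mutants 1, 5 and 10. The summed level of 12 hepatocyte markers ran from 3.60 to 815 CPM (counts scaled to the size of the TMM-normalised library) in controls and from 3.32 to 23.4 CPM in mutants, with Apoc3 at 0 counts in all hearts. Mutant 1 lay above controls 2 and 5 for other liver genes: Afp, which encodes alpha-fetoprotein, had 2, 20620 and 340 counts in the same controls against 772, 4 and 16 in the mutants, and Apoa1, which encodes an apolipoprotein, had 11, 3561 and 58 against 144, 7 and 13. The median log2 fold change of the hepatocyte markers was -3.75, and 0.17 without control 3. Fetal liver holds macrophages too. Control 5 stood apart in other genes, named after their values were seen. Ttn, Myh7, Actn2 and Lrp1 had their lowest CPM of all hearts there, while Myl2, Myl3 and Tnni3 had their highest CPM of the controls. The summed level of 12 erythroid markers was 39280 CPM in control 5, against 15145 and 16947.5 CPM in controls 2 and 3. It was also high in mutant 10, at 42675 CPM. The cause was not tested.

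Markers that define macrophages were present in all 6 hearts. Csf1r, the receptor that keeps macrophages alive, had 1183, 1386 and 886 counts in controls 2, 3 and 5 against 1357, 1470 and 1511 in mutants 1, 5 and 10. Adgre1, which encodes F4/80, had 250, 336 and 335 counts in the same controls and 527, 480 and 521 counts in the mutants. Both genes were lower in each control heart than in each mutant heart on the CPM scale. In RNA from whole hearts, more macrophages and more RNA per macrophage cannot be told apart.

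Across all 17473 genes tested, the quasi-likelihood test of edgeR gave no gene a Benjamini-Hochberg adjusted p under 0.05 (0 genes, 0%), while 549 genes (3.14%) were higher and 453 (2.59%) were lower in mutants at an unadjusted p under 0.05. DESeq2, the tool of the study's methods, called 133 of 19282 genes (0.690%). The mutant and control values did not overlap, with the mutants higher, in 1155 genes (6.61%), and with the mutants lower in 802 (4.59%). Among the 9 members that passed the filter, 6 had groups that did not overlap, all higher in the mutants, a count that the choice of members fixed in part and from which nothing is read.

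The members split into a group of 6 genes with higher values in every mutant heart (C1qa, C1qb, C1qc, Msr1, Timd4 and Vsig4), a group of 3 genes with overlapping values (Stab1, Lyve1 and Mrc1), and Cd163, which was near the limit of detection throughout. The median log2 fold change of the 9 members was 0.76, against -0.0010 for all genes tested, and it was the same with Vsig4 set to its lower bound. Leaving out 1 heart at a time gave medians from 0.63 to 0.91. The plot of the members in each heart shows this split.

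**Figure D1:**
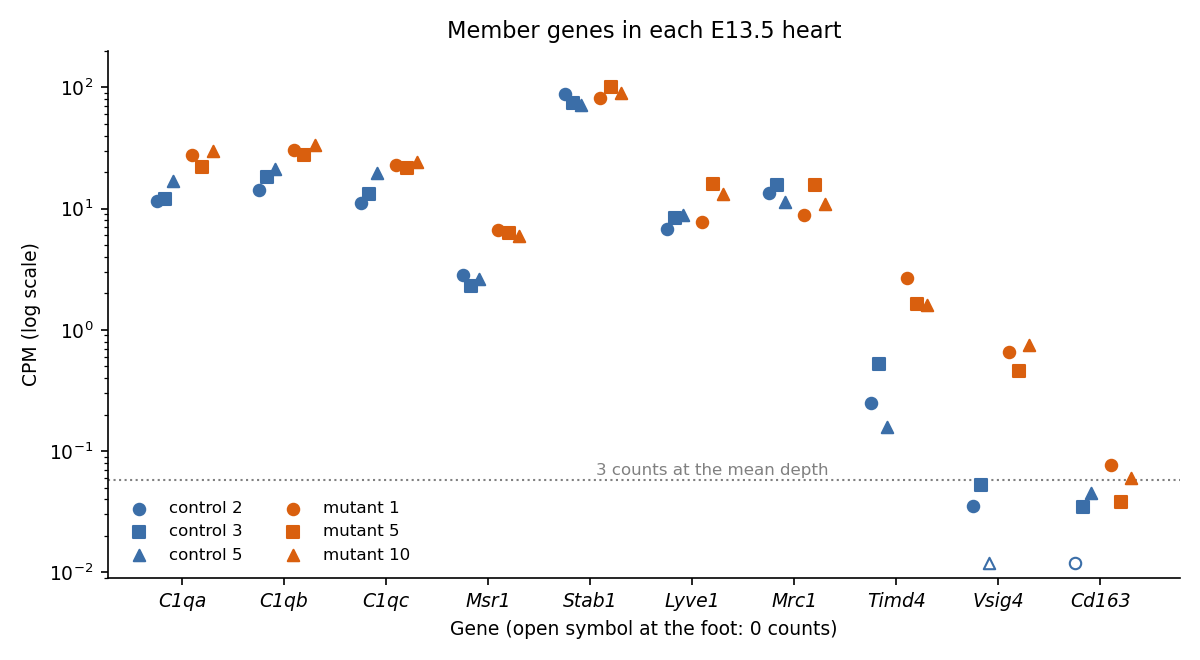
Level of each of the 10 genes in CPM on a log scale, 1 point per heart, with controls in blue and mutants in orange. The dotted line marks 3 counts at the mean depth and open symbols at the foot mark hearts with 0 counts. The mutant points lie above all control points for C1qa, C1qb, C1qc, Msr1, Timd4 and Vsig4, and the groups overlap for Stab1, Lyve1, Mrc1 and Cd163.

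The C1q genes lie side by side on chromosome 4, on the minus strand of GRCm38, in the order C1qb, C1qc and C1qa within 18.675 kb (chr4:136880129-136898803). C1qa, C1qb and C1qc each encode 1 of the chains that fold together into the C1q trimer. The promoters of C1qb and C1qc were in the table of RefSeq promoters used here, which holds the 250 bases before and the 50 bases after a start site. They are shown because the C1q genes had like profiles over the hearts. Capitals mark the PU-box, the letters GAGGAA or their reverse complement TTCCTC, a core recognised by the myeloid factor PU.1. The C1qb promoter (GRCm38.p6, chr4:136886151-136886450, minus strand) has the match 30 bases before the start site, and the C1qc promoter (chr4:136892865-136893164, minus strand) 193 bases before it.
C1qb promoter: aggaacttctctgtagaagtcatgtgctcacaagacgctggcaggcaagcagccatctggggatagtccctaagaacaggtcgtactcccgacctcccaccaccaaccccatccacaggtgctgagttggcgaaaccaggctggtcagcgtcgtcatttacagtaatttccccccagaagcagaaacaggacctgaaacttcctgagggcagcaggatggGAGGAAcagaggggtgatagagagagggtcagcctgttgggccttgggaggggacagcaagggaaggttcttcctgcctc
C1qc promoter: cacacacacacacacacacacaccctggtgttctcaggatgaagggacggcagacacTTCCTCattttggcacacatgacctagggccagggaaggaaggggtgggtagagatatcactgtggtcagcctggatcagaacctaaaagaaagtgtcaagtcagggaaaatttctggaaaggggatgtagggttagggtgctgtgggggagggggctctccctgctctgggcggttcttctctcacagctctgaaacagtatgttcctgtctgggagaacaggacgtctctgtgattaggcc
These letters occur in 28.3% of the 27025 promoters of the table, so a match is common and is a description of the sequence only.

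C1qa (ENSMUSG00000036887, chr4:136895917-136898803) had 647, 689 and 737 counts in controls 2, 3 and 5 against 1440, 1156 and 1491 in mutants 1, 5 and 10. The mean level was 13.4 ± 2.90 CPM in controls and 26.5 ± 3.94 CPM in mutants (SD, n = 3 per group). The log2 fold change (mutant over control) was 0.98 with a standard error (SE) of 0.18, and the lowest mutant heart had 1.32 times the CPM of the highest control heart.

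C1qb (ENSMUSG00000036905, chr4:136880129-136886187) had 807, 1045 and 933 counts in the 3 controls and 1582, 1439 and 1665 counts in the 3 mutants, in the same order of replicates. Its level was 17.9 ± 3.44 CPM in controls and 30.3 ± 2.82 CPM in mutants, and the log2 fold change was 0.76 (SE 0.16). The groups did not overlap.

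C1qc (ENSMUSG00000036896, chr4:136889804-136893065) had 627, 758 and 859 counts in controls and 1184, 1132 and 1210 counts in mutants. Its level was 14.6 ± 4.37 CPM in controls and 22.8 ± 1.23 CPM in mutants, a log2 fold change of 0.64 (SE 0.20). Here the groups were closest, with the lowest mutant at 1.11 times the highest control. The log2 fold change of C1qc was 0.91 without control 5 and 0.48 without control 2.

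The C1q genes shared their order of hearts on the CPM scale. For each of them control 2 was the lowest heart, control 5 the highest control, mutant 5 the lowest mutant and mutant 10 the highest heart. In controls the highest heart was 1.46 times the lowest for C1qa, 1.48 times for C1qb and 1.75 times for C1qc, so for C1qc the controls differed among themselves by more than the 1.56-fold between the group means.

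The chains enter C1q in equal numbers, and the make-up of the C1q RNA was therefore compared on the deposited FPKM scale, in which the count is divided by a fixed gene length and by depth. The summed FPKM of the C1q genes was 43.3 ± 9.35 in controls and 73.7 ± 5.94 in mutants (SD, n = 3). C1qa made up 32.0%, 28.5% and 29.96% of this sum in controls 2, 3 and 5 and 35.1%, 31.9% and 35.1% in mutants 1, 5 and 10. The mean share of C1qa was 3.90 percentage points higher in mutants, with overlapping groups, since mutant 5 lay just under control 2. The share of C1qb was 38.5 ± 2.53% in controls and 37.4 ± 0.512% in mutants, and that of C1qc 31.3 ± 2.12% and 28.6 ± 1.44%, both with overlap. The deposited length of C1qc (1075 bases) is shorter than its annotated exons (1931 bases). Scaled to the annotated exon length, the mean share in mutants minus that in controls was 3.96 percentage points for C1qa, -1.90 for C1qb and -2.07 for C1qc, each with overlapping groups.

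**Figure D2:**
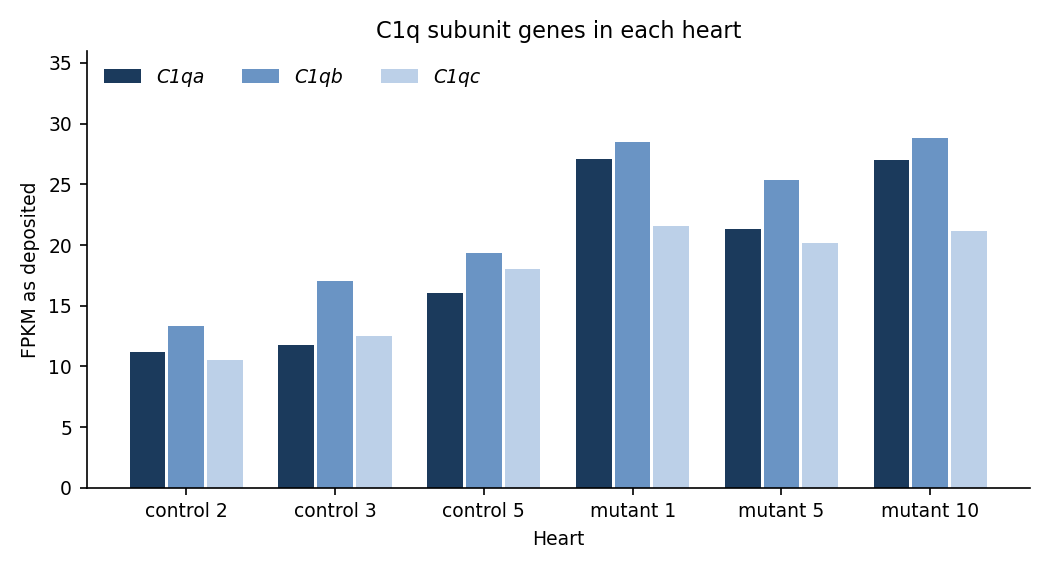
FPKM of C1qa, C1qb and C1qc in each of the 6 hearts, 1 bar per gene and heart, from an axis that starts at 0. All 3 genes are higher in the 3 mutant hearts than in the 3 controls, and C1qb is the highest of the 3 in every heart.

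The protein-coding genes that flank the C1q genes among those tested overlapped between the groups. Ephb2, an ephrin receptor, lies 44.1 kb away and had a log2 fold change of -0.44 (SE 0.23, adjusted p = 0.928 in the quasi-likelihood test of edgeR). Kdm1a, a histone demethylase, had 0.0029, and on the other side Zbtb40, a zinc finger gene, had -0.02 and Wnt4, which encodes a Wnt ligand, had 0.14. Their adjusted p in this edgeR test lay between 0.928 and 0.999.

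Msr1 (ENSMUSG00000025044, chr8:39581685-39642673, minus strand) encodes the class A scavenger receptor, which takes up modified lipoproteins. It had 160, 131 and 116 counts in controls 2, 3 and 5 against 348, 328 and 298 in mutants 1, 5 and 10. The level was 2.58 ± 0.285 CPM in controls and 6.29 ± 0.388 CPM in mutants (SD, n = 3). Its log2 fold change was 1.28 (SE 0.17), and the highest heart was 1.25 times the lowest in controls and 1.13 times in mutants. The lowest mutant heart had 2.08 times the CPM of the highest control heart. Leaving out 1 heart at a time gave log2 fold changes from 1.20 to 1.36.

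Timd4 (ENSMUSG00000055546, chr11:46810800-46844332, plus strand) encodes TIM-4, by which long-lived tissue macrophages hold apoptotic cells. It had 14, 30 and 7 counts in controls 2, 3 and 5 against 138, 85 and 81 in mutants 1, 5 and 10. Its level was 0.310 ± 0.189 CPM in controls and 1.96 ± 0.600 CPM in mutants, a log2 fold change of 2.63 (SE 0.46). The lowest mutant had 3.09 times the CPM of the highest control, which was control 3, the heart with liver RNA. Without that heart the groups stood farther apart, at 3.24 on the log2 scale, and with control 5 left out the value was 2.34.

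Vsig4 (ENSMUSG00000044206, chrX:96247203-96293438, minus strand) encodes CRIg, which binds C3 fragments on opsonised particles. It had 2, 3 and 0 counts in controls 2, 3 and 5 against 34, 24 and 38 in mutants 1, 5 and 10. Every control had 3 counts or fewer, and 3 counts were taken as the floor of each heart. The mutant mean was 10.8 times the mean floor of the controls, a lower bound on the fold between observed means. In single hearts, the lowest mutant had 8.78 times the CPM of the highest control. The mutant level was 0.622 ± 0.151 CPM, and the count of 0 in control 5 allows up to 0.0682 CPM. Floors cover counting error only.

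The promoters of Timd4 (GRCm38.p6, chr11:46810549-46810848, plus strand) and Vsig4 (chrX:96293389-96293688, minus strand) are shown because these genes had the largest folds of the set. Capitals mark the PU-box in Vsig4, at 155 and 53 bases before the start site. In Timd4 they mark a composite element for ETS and IRF factors (GGAA and GAAA with any 2 bases between them, or the reverse complement), 72 bases before the start site.
Timd4 promoter: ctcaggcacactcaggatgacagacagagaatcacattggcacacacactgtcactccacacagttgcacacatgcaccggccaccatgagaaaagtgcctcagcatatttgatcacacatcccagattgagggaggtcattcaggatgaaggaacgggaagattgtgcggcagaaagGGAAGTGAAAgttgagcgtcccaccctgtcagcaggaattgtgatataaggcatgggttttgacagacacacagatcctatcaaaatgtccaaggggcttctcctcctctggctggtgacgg
Vsig4 promoter: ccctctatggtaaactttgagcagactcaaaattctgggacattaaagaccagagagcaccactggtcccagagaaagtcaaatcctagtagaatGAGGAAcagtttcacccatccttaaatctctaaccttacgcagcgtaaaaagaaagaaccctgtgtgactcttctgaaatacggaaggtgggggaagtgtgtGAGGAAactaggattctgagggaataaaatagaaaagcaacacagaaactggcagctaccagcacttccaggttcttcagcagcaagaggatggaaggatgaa
The composite occurs in 2.79% of all promoters of that length, and of the 7 members with a promoter in the table it occurs in Timd4 only. A match of letters shows no binding. The PU-box was found in 5 of the 7 (C1qb, C1qc, Mrc1, Stab1 and Vsig4), and neither motif in the window of Cd163. C1qa, Msr1 and Lyve1 were not in the table.

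Cd163 (ENSMUSG00000008845, chr6:124304656-124330527, plus strand), the receptor for haemoglobin bound to haptoglobin, had 0, 2 and 2 counts in controls 2, 3 and 5 against 4, 2 and 3 in mutants 1, 5 and 10. These values overlap and lie at or near 3 counts, so no fold is given. Cd163 was not detectable as different at this depth.

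Stab1 (ENSMUSG00000042286, chr14:31139013-31168641, minus strand) encodes stabilin-1, a scavenger receptor of macrophages and sinusoidal endothelium. It had 4920, 4262 and 3119 counts in controls 2, 3 and 5 against 4239, 5235 and 4479 in mutants 1, 5 and 10. The level was 77.4 ± 8.74 CPM in controls and 90.1 ± 9.21 CPM in mutants (SD, n = 3), a log2 fold change of 0.22 (SE 0.12). Control 2 lay above mutant 1, so the groups overlapped. Exons of Nt5dc2 on the opposite strand cover 1.09% of the exon bases of Stab1, and the strand setting of the counting was not given.

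Lyve1 (ENSMUSG00000030787, chr7:110850607-110863239, minus strand) had 382, 476 and 388 counts in controls 2, 3 and 5 against 400, 834 and 662 in mutants 1, 5 and 10. Its level was 7.96 ± 1.05 CPM in controls and 12.3 ± 4.18 CPM in mutants, a log2 fold change of 0.62 (SE 0.25). Mutants 5 and 10 lay above every control, while mutant 1 lay below controls 3 and 5. The log2 fold change of Lyve1 was 0.87 without mutant 1 and 0.38 without mutant 5, so its size depends on which mutant hearts are used.

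Mrc1 (ENSMUSG00000026712, chr2:14229392-14332057, plus strand), the mannose receptor CD206, had 749, 904 and 502 counts in controls 2, 3 and 5 against 461, 825 and 548 in mutants 1, 5 and 10. It was the only tested member with a negative log2 fold change, -0.19 (SE 0.22), from 13.47 ± 2.16 CPM in controls to 11.8 ± 3.53 CPM in mutants. The value was -0.02 without mutant 1, -0.06 without control 3, -0.13 without mutant 10, -0.29 without control 5 and -0.46 without mutant 5, so single hearts set its size. The lowest heart was mutant 1 and the highest mutant 5, with the controls between them.

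Stab1, Lyve1 and Mrc1, the members with a known endothelial source, shared an order among the mutants that differed from that of the C1q genes. Each was highest in mutant 5 and, among mutants, lowest in mutant 1. C1qa, C1qb and C1qc were lowest among mutants in mutant 5. The order of Stab1, Lyve1 and Mrc1 among mutants was also that of Mpeg1 and Ctss, macrophage genes described below. Adgre1, another macrophage gene, had the order of the C1q genes among mutants. Msr1 and Timd4 differed from both, highest in mutant 1 and lowest among mutants in mutant 10. What sets these orders was not tested. A list of 12 endothelial markers summed to 1063 to 1405 CPM in controls and 1263 to 1574 CPM in mutants, with a median log2 fold change of 0.25. Of these, 1 was higher at an unadjusted p under 0.05 (Emcn, 0.25) and none was lower. This count was 5 without control 2, 2 without mutant 1 and 0 without control 3, mutant 5 or mutant 10. The genes whose groups did not overlap, with the mutants higher, went from 1 to 9 without mutant 1. Over all genes tested this share also rose, from 6.61% to 12.7%, with that heart left out. A list of 10 lymphatic and liver sinusoid endothelial markers summed to 119 to 149 CPM in controls and 120 to 157 CPM in mutants, and its 9 tested genes had a median of -0.06, which was 0.11 without control 3. Prox1 held the largest part of this sum, at a mean of 67.4 CPM in controls and 69.5 CPM in mutants, and its source cells were not tested. The part of endothelial cells in the levels of Stab1, Lyve1 and Mrc1 was not tested.

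The order of the members by level depends on the gene length used. On the deposited FPKM scale the controls had Stab1 at 39.6 ± 4.73, C1qb at 16.6 ± 3.03, C1qc at 13.7 ± 3.91 and C1qa at 12.99 ± 2.63 (SD, n = 3). The deposited values use 1975 bases for Stab1, while its annotated exons cover 10288 bases and its longest transcript 7999. Scaled instead to the annotated exon length, Stab1 stood at 7.61 ± 0.909, below C1qb at 16.6, C1qa at 12.99 and C1qc at 7.62 ± 2.18. On this scale C1qc and Stab1 did not differ beyond their spread in controls, where C1qc was the higher in control 5 only, while in all 3 mutants C1qc was above Stab1. C1qb was above C1qa in each of the 6 hearts, although the ranges of these genes over the controls overlapped.

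Below these came Lyve1 and Mrc1, whose order also turned with the length: the deposited FPKM in controls was 3.08 ± 0.387 for Lyve1 and 3.66 ± 0.631 for Mrc1, and per kilobase of annotated exon it was 2.75 and 2.14. Msr1 followed at 1.02 ± 0.109 FPKM, then Timd4 at 0.145 ± 0.0895, Vsig4 at 0.0323 and Cd163 at 0.00694. In mutants the deposited FPKM was 45.2 ± 4.86 for Stab1, 27.5 ± 1.92 for C1qb, 25.1 ± 3.33 for C1qa and 20.98 ± 0.725 for C1qc. The fixed length cancels within a gene, so it does not enter the fold changes.

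The set was next read beside 47 other macrophage genes, a list of surface markers, regulators and lysosomal genes that holds none of the members. This list, like the other lists, was chosen with earlier results of these data known. Its counts are therefore a description and no independent support. All 47 were tested, and 44 had a positive and 3 a negative log2 fold change, with a median of 0.52 against -0.0010 for all genes. None had an edgeR adjusted p under 0.05 (0 genes), 21 were higher and 0 lower at an unadjusted p under 0.05, and DESeq2 called 6 (Ctss, Mpeg1, Cybb, Gpnmb, Apoe and Siglec1, picked after the values were known). In 24 genes the groups did not overlap, all with higher mutants, beside 6.61% of all genes tested. Of all genes, 3.14% were higher and 2.59% lower at that unadjusted p. The 21 became 18 without control 3 and 30 without control 5, and 13 and 12 without mutants 5 and 10. The list summed to 1263 to 1312 CPM in controls and 1564 to 1741 CPM in mutants. Most of this sum came from Ctsb, Apoe, Grn and Igf1, with means of 379, 307, 154 and 119 CPM in controls. In mutants these means were 423, 443, 183 and 143 CPM, so the sum mainly reflects these genes.

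Mpeg1, which encodes the pore-forming perforin-2 of macrophages, had the smallest p of the list. It had 509, 665 and 450 counts in controls 2, 3 and 5 against 916, 1049 and 908 in mutants 1, 5 and 10. Its log2 fold change was 0.85 (SE 0.13, adjusted p = 0.145 in the quasi-likelihood test of edgeR, Benjamini-Hochberg adjusted). F13a1, a coagulation factor subunit made by tissue macrophages, had the smallest p among genes with lower values, at -0.04. The most abundant members of the list by FPKM were Apoe, which encodes a lipid carrier (0.53), Grn, which encodes progranulin (0.25), and Ctsb, which encodes the lysosomal protease cathepsin B (0.16), and these are expressed in many other cells too.

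To set the members against the other macrophage genes, the geometric mean CPM of 8 members (all but Vsig4 and Cd163) was divided by that of the 47 genes in each heart. The log2 ratio was 0.990, 0.997 and 0.685 in controls 2, 3 and 5 and 1.15, 1.16 and 1.11 in mutants 1, 5 and 10. The mean difference was 0.25 and became 0.15 without control 5, the lowest heart. It rested on Timd4: with that gene left out the ratio was 1.69, 1.58 and 1.498 in controls 2, 3 and 5 and 1.504, 1.62 and 1.57 in mutants 1, 5 and 10, a difference of -0.02 with overlapping groups. Leaving out any other member gave 0.19 to 0.41. Against Csf1r, Adgre1 and Cd68 alone the difference was 0.34, and 0.07 without Timd4. Both quantities come from the contrast on which the members were chosen, so these values describe the hearts and were not tested.

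The members differed in this ratio. Relative to the other macrophage genes Timd4 was 2.16 and Msr1 0.65 higher on the log2 scale in mutants, with groups that did not overlap. C1qa (0.35), C1qb (0.14) and C1qc (0.04) kept closer to the macrophage genes, and their groups overlapped. Lyve1 (-0.07), Stab1 (-0.42) and Mrc1 (-0.86) were lower relative to them in mutants, again with overlap.

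**Figure D3:**
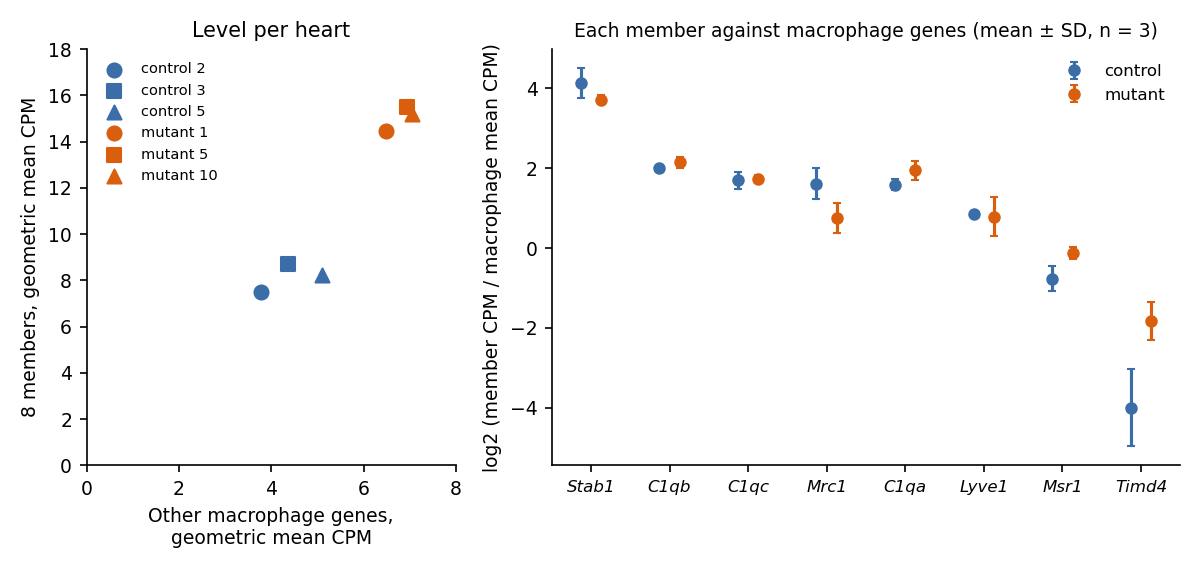
Left, geometric mean CPM of 8 members against that of 47 other macrophage genes, 1 point per heart, with linear axes from 0. Right, the log2 ratio of each member to the macrophage mean as mean ± SD over 3 hearts per group, where Timd4 and Msr1 are higher in mutants and Mrc1 lies lower with overlapping hearts.

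By the root mean square difference of centred log2 CPM over the 6 hearts, the genes most like the mean profile of the 8 members were Mpeg1 (0.06), Socs2 (0.06), Tifab (0.07), Tnfaip6 (0.08), Clec12a (0.08), Gm5796 (0.09), Ctss (0.10), Tmtc1 (0.10), Sla (0.11) and Serpinb1a (0.12). They were taken from 14148 genes, whose median was 0.46. The profile came from members chosen on this contrast, so the genes nearest to it are higher in mutants by construction. Mpeg1 and Ctss, the gene for cathepsin S, are on the list of macrophage genes. Socs2, a suppressor of cytokine signalling, had the highest level of the 10 at 49.8 CPM and a log2 fold change of 0.75. Of the members, C1qb lay closest to the mean profile (0.16), and Timd4 (1.01) and Mrc1 (0.59) lay farthest from it. Only 5 of these 10 genes remained when genes under 5 CPM were left out, so the order rests in part on low genes. Timd4 entered the profile with a mean of 0.310 CPM in controls and 1.96 CPM in mutants, and with it left out only 2 of the 10 remained (Socs2 and Ctss).

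The other genes of the complement system, among them Itgam of the macrophage list too, formed a list of 48, of which 32 were tested. Their median log2 fold change was 0.10, with 8 genes higher and 6 lower at an unadjusted p under 0.05 and none at an edgeR adjusted p under 0.05 (0 genes), while DESeq2 called 3. The 8 became 5 without mutant 5 and 4 without mutant 10. Cfb and Cfd, of the alternative pathway, had 0 counts in all hearts. The groups did not overlap, with the mutants higher, in 9 genes and, with the mutants lower, in 5. Over all genes tested these shares were 6.61% and 4.59%, and 3.14% were higher and 2.59% lower at an unadjusted p under 0.05.

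Fcna, which encodes ficolin A, a lectin that starts complement and is made by macrophages, had 10, 32 and 18 counts in controls 2, 3 and 5 against 195, 116 and 162 in mutants 1, 5 and 10. Its level was 0.381 ± 0.191 CPM in controls and 3.06 ± 0.781 CPM in mutants, and the log2 fold change was 3.0 (SE 0.43, adjusted p = 0.119 in the quasi-likelihood test of edgeR). Cd59a, which encodes an inhibitor of the membrane attack complex, had the smallest p among genes with lower values, at -0.91 (SE 0.21, adjusted p = 0.404 from the same edgeR test). Of the abundant genes, Clu, which encodes the fluid-phase inhibitor clusterin, had 0.61, Calr, which encodes the C1q-binding chaperone calreticulin, 0.08, and C1qbp, which encodes a mitochondrial protein that binds C1q, -0.08. C3, the central component, had 88, 598 and 28 counts in controls and 35, 55 and 61 in mutants, so that its high value was that of control 3, and it was named after its values were seen.

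The other scavenger and apoptotic cell receptors, among them Cd68 and Cd5l of the macrophage list too, formed a list of 41 genes. Of them 35 were tested, with a median log2 fold change of 0.13. Of these, 8 were higher and 1 lower at an unadjusted p under 0.05, beside 3.14% and 2.59% of all genes tested. None had an edgeR adjusted p under 0.05 (0 genes), and 1 was called by DESeq2 (Clec7a, the beta-glucan receptor dectin-1, 1.38, named after its values were seen). The 8 became 5 without mutant 5 and 4 without mutant 10. Scara3, a scavenger receptor-like gene, had the smallest p of the higher genes at 0.51 (SE 0.13, adjusted p = 0.484 from the edgeR test), and Ager, which encodes the receptor for advanced glycation end products, that of the lower ones at -0.57. Among the abundant genes, Axl, a receptor kinase for apoptotic cells, had 0.21, Mfge8, which encodes a bridging protein for phosphatidylserine, 0.13, and Itgb5, an integrin subunit, -0.08.

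Clec4f, a lectin receptor that in mice marks the macrophages of the liver, had 9, 27 and 2 counts in controls 2, 3 and 5 against 66, 43 and 50 in mutants 1, 5 and 10, and was named after its values were seen. Its log2 fold change was 2.14 (SE 0.65, adjusted p = 0.652 in the quasi-likelihood test of edgeR). Timd4, Vsig4, Fcna and Clec4f each had their highest control value in control 3 and were higher in all mutants. Cd5l, of the macrophage list, had 11, 8 and 23 counts in the same controls against 42, 16 and 46 in the mutants. Marco, of the scavenger list, had 8, 32 and 2 against 20, 27 and 48. Both overlapped between the groups and were named after their values were seen. Among mutants Timd4, Fcna and Clec4f were highest in mutant 1, the mutant with the most Alb, Afp and Apoa1 counts. Vsig4, Cd5l and Marco were highest in mutant 10. Alb had 17429 counts in control 3 and 46, 2 and 9 in mutants 1, 5 and 10. The part of liver RNA in these values was not tested.

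Markers of other blood cells were read in the same way. A list of 12 monocyte and granulocyte markers summed to 2.38 to 9.02 CPM in controls and 10.4 to 13.6 CPM in mutants, and 12 megakaryocyte and platelet markers to 31.7 to 43.9 and 49.7 to 71.9 CPM. The sums of these lists did not overlap, but of the 9 monocyte and granulocyte genes tested none passed an unadjusted p under 0.05 (0 genes) in the edgeR test and none was called by DESeq2 (0 genes). At that p, 8 of the 12 platelet genes were higher, beside 3.14% of all genes tested. Erythroid markers overlapped, at 15145 to 39280 CPM in controls and 12472 to 42675 CPM in mutants. Their part in the levels of the members was not tested. The plot of fold changes sets the members beside all these lists.

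**Figure D4:**
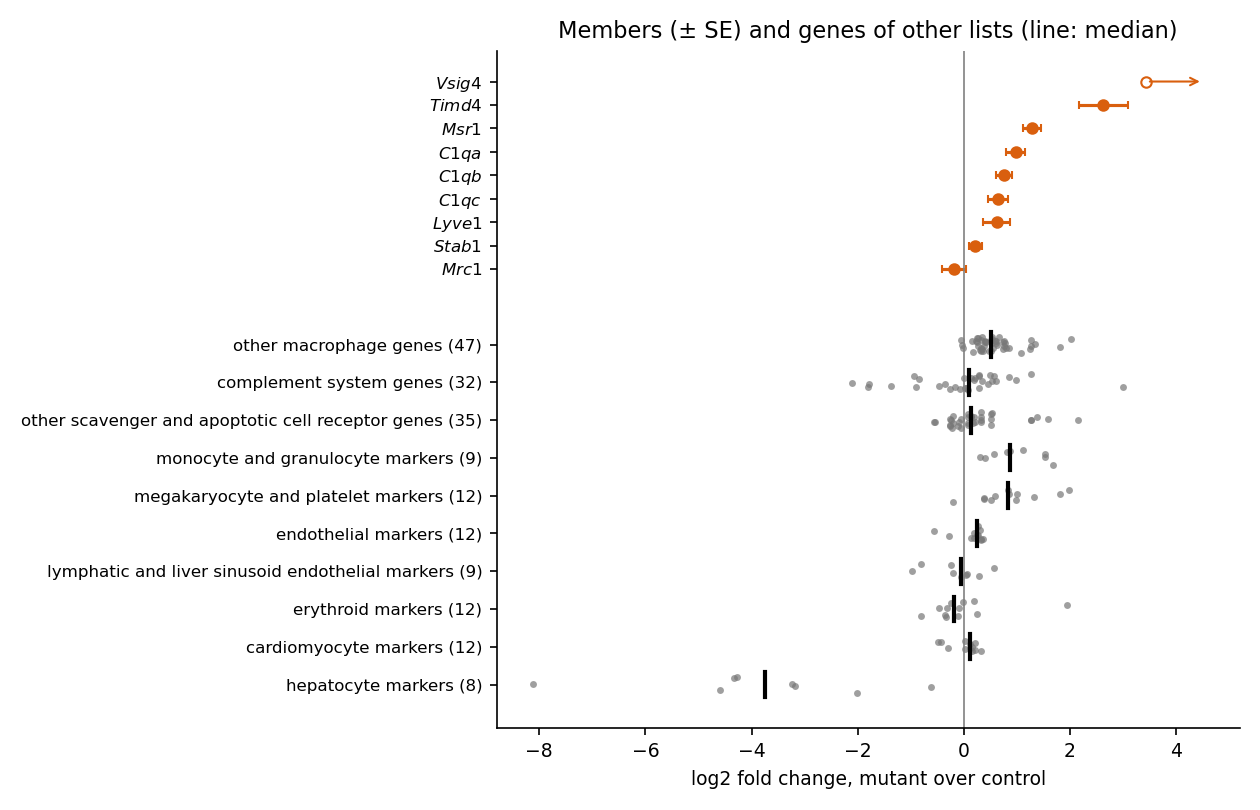
Log2 fold change of mutant over control for the 9 members tested (orange, ± SE) and for the tested genes of 10 other lists (grey points, number of genes in brackets, black line at the median). The open symbol with an arrow is the lower bound of Vsig4, and the medians lie at 0.52 for other macrophage genes, 0.86 for monocyte and granulocyte markers, 0.84 for platelet markers and -3.75 for hepatocyte markers (0.17 without control 3).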

How the data were processed

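RNA of 6 hearts was analysed, 3 per group. The authors aligned the trimmed reads to GRCm38 with STAR and deposited raw counts per gene and heart. The paper's methods name featureCounts for the counting and the submitters' processing notes name HTSeq, and the strand setting is not given in the sources used here. The authors also deposited FPKM values, which in the files equal the count over the heart's total and over 1 length that is fixed for the gene. RNA was chosen for an integrity number above a set limit, libraries were made with a TruSeq kit, and no label names a batch or tells whether embryos shared a litter. The p-values set the difference between groups against the spread of these hearts within groups, and any effect of litter or batch was not modelled.

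Counts were compared with edgeR 4.0.16 in R 4.3.3 (quasi-likelihood test, two-sided, TMM normalization, filterByExpr with a minimum count of 10 and a total of 15, Benjamini-Hochberg adjustment over the 17473 genes tested, threshold 0.05). CPM was scaled to the TMM-normalised library, and a gene at 3 counts or fewer in each heart of a group was taken as at its floor. The standard error is that of the log2 fold change from this fit. Alternatives were DESeq2 1.42.0, RLE size factors, no filter on low counts, limma 3.58.1 on log2(FPKM + 1) and log2(FPKM + 0.1), removal of the gene length trend per heart (local regression, span 0.5), and each heart left out. The counts of list genes with each heart left out, the ratio with each member left out, the profile without Timd4, and the levels and C1q shares per annotated exon length were added after the data were seen. The fits were tested on simulated data with 200 changed genes. The genes and the lists were chosen with earlier results of these data known. Named genes are the members, in each list the genes that passed the threshold or otherwise the gene with the smallest p in each direction and the 3 with the highest mean FPKM, the 10 genes with the most similar profile, and Wt1, and other names were chosen after values were seen. Positions and exon lengths come from GENCODE M21 on GRCm38, in which 50-base stretches of the members' transcripts were compared with all other transcripts. None was shared for 8 members, and 0.109% was shared for Cd163 and 0.690% for Stab1. Promoters come from RefSeq on GRCm38.p6, with both strands searched. Protein sequences were not used here.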

Additional observations from a re-analysis of the deposited data

How the results depend on the processing

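The 9 tested members kept the sign of their log2 fold change under all 12 alternatives each (108 values, 0 reversed), and 5 values moved by more than the spread between hearts. These were the low genes on the log2(FPKM + 1) scale (Msr1 0.77, Timd4 0.72 and Vsig4 0.69), Vsig4 on the log2(FPKM + 0.1) scale (2.54) and Vsig4 without control 3 (4.83, a fitted value and no bound). The pseudocount itself shrinks the fold of low genes. For Mrc1 the kept sign was as small as -0.02, without mutant 1. The members were chosen on this contrast and every alternative used the same hearts or all but 1 of them. The kept signs are therefore a description and no independent support. The number of genes with an adjusted p under 0.05, which was 0 among all genes and 0 among the listed genes, became 133 and 12 with DESeq2, 34 and 4 without a filter on low counts, and 13 and 1 with the gene length trend removed. It ran from 0 to 44 and from 0 to 6 with 1 heart left out, where 44 and 6 are the values without control 5. The cause was not tested. Of the 10 genes most like the members, 5 remained among genes with at least 5 CPM and 2 with Timd4 left out of the profile. The difference in the C1qa share ran from 3.07 to 4.98 percentage points with 1 heart left out, and the difference in the ratio of members to other macrophage genes from 0.15 (without control 5) to 0.30. This difference turned to -0.024 with Timd4 left out of the members and was 0.41 with Mrc1 left out, both chosen after seeing the data. No paired analysis was possible because no label pairs a control heart with a mutant heart. Depth limits Cd163, at 4 counts or fewer in each heart, and the controls of Vsig4, at 3 or fewer.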

Other observations

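Of all genes tested, 3.14% were higher and 2.59% lower at an unadjusted p under 0.05 in the edgeR test. Named genes of the cell type lists had these values, none of them with an edgeR adjusted p under 0.05. Among platelet genes, 8 of 12 were higher and 0 lower at an unadjusted p under 0.05 and DESeq2 called 2 (Ppbp and Tubb1, the latter named after its values were seen). Ppbp, a platelet chemokine, had a log2 fold change of 1.98, Pf4, another platelet chemokine, 0.84, Itga2b, a platelet integrin subunit, 0.51, and Clec1b, the podoplanin receptor of platelets, -0.20. Among monocyte and granulocyte genes, 0 of 9 passed an unadjusted p under 0.05, DESeq2 called 0, and all 9 had positive values (4 passed without control 5, with a median of 1.20 against 0.86, and 1 without control 3), with 1.67 for S100a8, 1.52 for S100a9 and 0.31 for Prtn3, which encode granule or cytosolic proteins of neutrophils.

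At an unadjusted p under 0.05, 1 lymphatic gene was higher and 1 lower, 0 hepatocyte genes were higher and 4 lower (0 without control 3, 1 without mutant 5 or 10, 3 without mutant 1, and 7 without control 2 or 5), 0 erythroid genes passed (4 lower without mutant 10, 1 higher without control 3, and 1 higher and 1 lower without control 5), and 0 cardiomyocyte genes were higher and 1 lower (2 higher without control 5), with 0 called by DESeq2 in these lists. Of the endothelial genes Pecam1 had a log2 fold change of 0.26, Eng 0.26, Egfl7 -0.28 and Cldn5 -0.55. Of the lymphatic genes Prox1, the lymphatic fate regulator, had 0.04, Flt4, a receptor for lymphatic growth factors, 0.06, Pdpn 0.28 and Reln -0.97 (adjusted p = 0.640 in the quasi-likelihood test of edgeR). Hepatocyte genes followed control 3, with -8.12 for Alb, -4.59 for Afp and -4.32 for Apoa1, and all 3 overlapped between the groups. Of the erythroid genes Hbb-bs had -0.31, Hbb-y -0.11, Hba-a1 0.25, Hba-a2 1.94 and Rhag -0.81. Of the cardiomyocyte genes Tnnt2 had 0.11, Myl2 0.21, Myl3 0.20 and Myl7 -0.48, and the median of the list was 0.12.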
